A study of Mus musculus with 4 samples.

Results

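The genes of adrenal steroid synthesis, Cyp11a1, Star, Hsd3b1, Hsd3b6, Cyp21a1, Cyp17a1, Mc2r and Fdx1, 8 in all, were followed in single-cell RNA-seq of mouse fetal gonads dissected together with the mesonephros. The 8 genes were taken by name from the 21495 genes of the deposited count table. For each, UMIs (counts of single molecules) were summed over the cells of a deposited cell type in a sample and scaled to 1000000 UMIs of those cells (CPM). The table holds 52745 cells in 13 cell types and 4 samples. The XY control sample at E11.5 was grown from unedited G4 mouse ES cells, an F1 hybrid line of C57BL/6J and 129, put into tetraploid host embryos, so that the ES cells form the embryo proper. The knockout samples, XY KO E11.5 and the later XY KO E11.75, came the same way from G4 cells made homozygous for a CRISPR deletion of the miR-17~92 microRNA cluster. The XX control sample at E11.5 came from matings of C57BL/6J males with 129 females, a cross chosen to resemble G4, so it differs from the XY control in sex chromosomes and in how the embryos were made. Each sample pooled the gonads of several embryos, with 1 sample per group, so that no p-value was computed and every interval below covers counting error only.

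The adrenal cortex and the gonad arise side by side from the coelomic epithelium, from a shared primordium marked by the nuclear receptor Nr5a1. Steroid synthesis starts when the receptor Mc2r binds adrenocorticotropic hormone. Star carries cholesterol to the inner mitochondrial membrane, where Cyp11a1 cleaves its side chain to give pregnenolone with electrons passed on by the ferredoxin Fdx1. Hsd3b1 and Hsd3b6 are 3-beta-hydroxysteroid dehydrogenases that turn pregnenolone into progesterone, which Cyp21a1 hydroxylates towards corticosterone. Cyp17a1 leads instead to androgens and, in many species, to adrenal cortisol. In the testis the same pathway is used by fetal Leydig cells, which form after the stages sampled here.

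The 6 main mature microRNAs of the deleted cluster are shown because their seeds (bases 2 to 8, in capitals) define what the knockout lacks. The sequences are those of RefSeq (GRCm38.p6), all on the plus strand between the ends of chr14:115043684-115044496.
miR-17-5p: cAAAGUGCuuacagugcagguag
miR-18a-5p: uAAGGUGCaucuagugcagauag
miR-19a-3p: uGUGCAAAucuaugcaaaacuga
miR-20a-5p: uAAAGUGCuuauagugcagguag
miR-19b-3p: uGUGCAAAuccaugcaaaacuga
miR-92a-3p: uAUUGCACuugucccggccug
The seeds fall into 4 kinds, since miR-17-5p and miR-20a-5p share one and miR-19a-3p and miR-19b-3p share another. Words complementary to a seed were looked for in the longest annotated 3′ UTR of each gene, namely GCACTTT for miR-17-5p with miR-20a-5p, GCACCTT for miR-18a-5p, TTTGCAC for both miR-19 forms and GTGCAAT for miR-92a-3p. Of the 8 genes only Star held any, against 28.7% of 20957 mouse 3′ UTRs. GCACTTT alone occurs in 11.73% of them, GCACCTT in 7.81%, TTTGCAC in 11.4% and GTGCAAT in 6.56%. The 3096 bases of the Star UTR held a match to miR-17-5p and miR-20a-5p at base 1975 and a match to miR-18a-5p at base 2684, neither followed by an A. A match is a description of the sequence and was not tested as a site.
Star, miR-17-5p and miR-20a-5p: ggcagcaaGCACTTTcatccgca
Star, miR-18a-5p: actgtcaaGCACCTTgataactt
The UTRs of the other 7 genes ranged from 171 bases in Cyp11a1 to 2169 in Fdx1, while the median over all genes was 956 bases.

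The start regions of the neighbouring Hsd3b1 and Hsd3b6 are shown because the 2 genes differed widely in adrenal gland cells. Each window spans the RefSeq start (GRCm38.p6, minus strand), at chr3:98859745-98860044 for Hsd3b1 and chr3:98814394-98814693 for Hsd3b6. Capitals mark words found on either strand among AAGGTCA and AAGGCCA (binding words of the Nr5a1 protein SF-1), the TATAA box word, the CCAAT box word and the GATA factor word AGATAA.
Hsd3b1: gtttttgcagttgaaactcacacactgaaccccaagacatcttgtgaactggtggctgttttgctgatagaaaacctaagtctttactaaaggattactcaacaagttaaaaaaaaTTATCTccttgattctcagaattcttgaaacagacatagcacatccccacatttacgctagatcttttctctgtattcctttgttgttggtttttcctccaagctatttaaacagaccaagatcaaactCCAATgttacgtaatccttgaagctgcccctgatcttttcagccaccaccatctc
Hsd3b6: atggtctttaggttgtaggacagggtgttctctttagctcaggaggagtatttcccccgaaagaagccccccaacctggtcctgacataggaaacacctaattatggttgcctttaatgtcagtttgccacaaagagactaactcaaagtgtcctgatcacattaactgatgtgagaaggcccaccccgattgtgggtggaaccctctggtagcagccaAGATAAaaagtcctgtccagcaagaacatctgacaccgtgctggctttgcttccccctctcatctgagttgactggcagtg
Hsd3b1 held CCAAT and, as TTATCT, the GATA factor word, and Hsd3b6 held AGATAA, while neither window held an SF-1 word or the TATAA word. The word AGATAA occurs in 11.2% of the 32851 promoter windows of the same length, the word CCAAT in 37.4%, the word TATAA in 24.9%, AAGGTCA in 4.72% and AAGGCCA in 6.20%. The absence of a word says only that these letters are not in the window.

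The cells deposited under the name Adrenal gland were few, with 241 in the XY control, 127 in the E11.5 XY KO, 55 in the XX control and 8 in the E11.75 XY KO. Cells were assigned to samples by the name ending that the labels give for each sample. The methods list the cell totals of the XY KO stages in the opposite order. They also give 1 technical replicate for the later stage and 2 for the other samples, which matches the assignment used here. These technical replicates are called runs below, and their spread is not the spread between embryos. In the order given above, the adrenal gland cells were 1.02%, 0.745%, 1.50% and 0.0942% of the cells of each sample, with exact Clopper-Pearson 95% intervals of 0.900 to 1.16%, 0.621 to 0.885%, 1.13 to 1.95% and 0.0407 to 0.186%. How much adrenal tissue was taken along in a dissection cannot be told apart from how much there was in the embryo. The name was checked against markers. All 12 cortex markers outside the 8 genes (among them Nr5a1, Mrap and Fdxr) had UMIs in each of the 4 samples, with a summed level of 1014 to 1960 CPM. Several of these are shared with the early gonad, and the same list summed to 771 to 895 CPM in pre-supporting cells. The 12 sympathoadrenal and neural crest markers summed to 0 to 15.4 CPM. Of the Leydig markers, Cyp11a1, Star and Cyp17a1 are among the 8 genes and so do not check the name. The luteinizing hormone receptor Lhcgr had 0 to 2 UMIs, and Hsd17b3, a testis enzyme of androgen synthesis, was at 0 UMIs. In the XY control Hsd17b3 stood at 26.2 CPM in Sertoli cells. Gonadal somatic markers summed to 149 to 228 CPM, Sertoli markers to 58.8 to 74.7, germ cell markers to 0 to 46.9, endothelial markers to 28.6 to 52.5, immune markers to 0 to 19.1 and nephric markers to 13.2 to 122 CPM. Erythroid markers moved with the groups, at 2312 CPM in the XY control against 751 to 910 CPM in the other 3 samples, and their part in the results below was not tested.

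Depth differed between samples, with 37841392 to 105192238 UMIs in all and a median of 5486 UMIs per adrenal gland cell in the XY control, 6856 in the E11.5 XY KO, 7226 in the E11.75 XY KO and 18656 in the XX control. The sums behind the adrenal levels were 1365137, 910288, 57150 and 1223890 UMIs in the same order, so that 3 UMIs stood for 2.20, 3.30, 52.5 and 2.45 CPM. Shares of cells with a UMI were therefore compared after thinning each cell to 3000 UMIs. The 7 single runs shared 1 to 40 cell barcodes with one another. Xist was at 826 CPM over all cells of the XX control and at 0.288 to 0.449 CPM in the XY samples. The host transcript of the deleted cluster, Mir17hg, was at 156 and 161 CPM in the XY KO samples and at 19.8 and 18.2 CPM in the XY and XX controls. Counts of the host outside the deleted stretch do not check the deletion.

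In the reference annotation of the build used (mm10, GENCODE M21), Cyp11a1 lies at chr9:58006411-58027023 and Fdx1 at chr9:51943306-51963556 on the same chromosome. Star lies at chr8:25806555-25815982, Cyp21a1 at chr17:34801348-34804561, Cyp17a1 at chr19:46667165-46673172 and Mc2r at chr18:68406907-68429320. Hsd3b6 (chr3:98805504-98814443) and Hsd3b1 (chr3:98852194-98859794) are neighbours within a cluster of near-identical enzymes, so it was asked whether a read could tell them apart. Of the 411 windows of 91 bases, the length of the transcript read, in the last 500 bases of Hsd3b6 transcripts, 71 also occurred in another gene, Hsd3b2 or Hsd3b3. None of the 412 windows of Hsd3b1 and none of the windows of the other 6 genes did so.

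In adrenal gland cells of the XY control 7 of the 8 genes stood above their pooled level over the 6 gonadal types, although the level of Cyp17a1 came from 2 cells of 1 run. The heat map gives each cell type on its own. Since the deposited cell types were made from the same expression values, this contrast is a description. Cyp21a1 stood at 76.9 CPM in adrenal gland cells of the XY control (105 UMIs) against 0.294 CPM over the 6 gonadal types, 251-fold. Hsd3b1 stood at 111 against 5.40 CPM (20.6-fold), Star at 265 against 14.3 (18.5-fold), Mc2r at 105 against 5.97 (17.7-fold), Cyp17a1 at 16.8 against 0.749 (22.6-fold), Fdx1 at 770 against 76.2 (10.1-fold) and Cyp11a1 at 152 against 22.6 (6.75-fold). A gene was called higher when the ratio passed 2-fold and its exact interval excluded no difference, over genes with at least 20 UMIs in the 2 sums. By that rule Cyp11a1, Star, Hsd3b1, Cyp17a1, Mc2r and Fdx1 were called higher in the XY control (4.86% of 15101 genes tested). Hsd3b6, with 2 adrenal UMIs, could not be tested. In the E11.5 XY KO Cyp11a1, Star, Mc2r and Fdx1 were called higher (4.10% of 14038 genes tested). In the XX control these and Hsd3b1 were called higher (5.13% of 13845). Cyp21a1 held 105 against 11 UMIs in the XY control and 21 against 3 in the E11.5 XY KO. In the XX control it held 36 against 1. Hsd3b1 held 157 against 15 UMIs in the E11.5 XY KO. In these sums both genes reached the minimum through the adrenal gland cells alone, could only be called higher and are not counted. Cyp17a1 was at 0 adrenal UMIs in the E11.5 XY KO and the XX control. Against pre-supporting cells alone Cyp11a1 stood at 152 against 70.4 CPM in the XY control and at 120 against 142 CPM in the XX control.

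**Figure D1:**
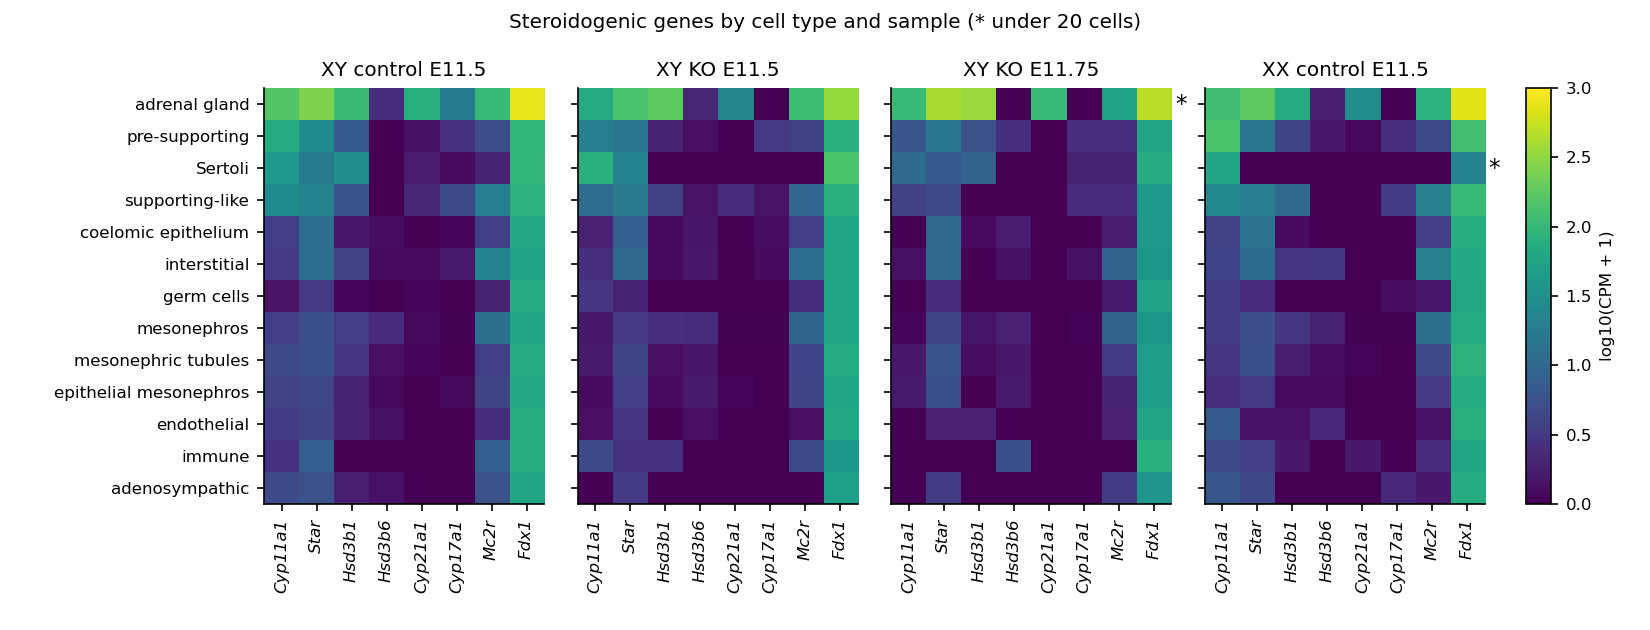
Level of the 8 genes (columns) in the 13 deposited cell types (rows) of the 4 samples (panels), as log10(CPM + 1) in colour. Adrenal gland cells carry the highest level of Cyp21a1 in every panel, while Cyp11a1 is also high in pre-supporting cells, at 142 CPM in the XX control. Asterisks mark types of under 20 cells.

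The genes differed in how strictly they kept to the adrenal gland cells. Of all Cyp21a1 UMIs in a sample, 84.0% lay in adrenal gland cells in the XY control, 77.8% in the E11.5 XY KO and 90.0% in the XX control. For Star the shares were 30.7%, 24.5% and 35.6%, for Mc2r 15.5%, 16.4% and 16.6%, and for Cyp11a1 16.8%, 23.9% and 11.4%. These shares depend on how many cells of each type were captured. The remaining Mc2r UMIs lay mostly outside the gonadal types too. Mc2r stood at 20.9 CPM in interstitial cells, 18.7 CPM in supporting-like cells and 11.6 CPM in the mesonephros of the XY control. The first pair of these values did not differ beyond their intervals. In the XX control the same types held 19.1, 19.4 and 11.67 CPM, whereas germ cells held 0.554 to 1.47 CPM in the 4 samples.

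In adrenal gland cells the receptor Mc2r differed least between the E11.5 samples among the genes with at least 20 UMIs there. It stood at 105 CPM in the XY control (144 UMIs, 95% interval 89.0 to 124), 115 CPM in the E11.5 XY KO (105 UMIs, 94.3 to 140), 81.7 CPM in the XX control (100 UMIs, 66.5 to 99.4) and 52.5 CPM in the E11.75 XY KO, where it rested on 3 UMIs. The intervals of the 4 samples overlapped. The log2 ratio of the E11.5 XY KO to the XY control was 0.13 (−0.25 to 0.50). Its single runs in the XX control were at 102 and 57.7 CPM, farther apart than the XX and XY controls.

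The cholesterol carrier Star was lower in the E11.5 XY KO than in the XY control but did not reach the 2-fold rule. Its levels were 265 CPM (362 UMIs, 239 to 294) in the XY control, 137 CPM (125 UMIs, 114 to 164) in the E11.5 XY KO, 178 CPM (218 UMIs, 155 to 203) in the XX control and 402 CPM (23 UMIs, 255 to 604) in the E11.75 XY KO. The intervals of the 3 E11.5 samples did not all overlap, since that of the XY control lay above both others. The log2 ratio was −0.95 (−1.26 to −0.65) for the E11.5 XY KO and −0.57 (−0.82 to −0.33) for the XX control.

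The side-chain cleavage enzyme Cyp11a1 and its electron donor Fdx1 were both called lower in the E11.5 XY KO. Cyp11a1 stood at 152 CPM (208 UMIs, 132 to 175) in the XY control and 69.2 CPM (63 UMIs, 53.2 to 88.6) in the E11.5 XY KO, a log2 ratio of −1.13 (−1.57 to −0.73). Fdx1 stood at 770 CPM (1051 UMIs, 724 to 818) and 332 CPM (302 UMIs, 295 to 371), a log2 ratio of −1.21 (−1.40 to −1.03). The single runs did not overlap for either gene. Cyp11a1 gave 163 and 139 CPM in the XY control runs and 73.6 and 65.9 CPM in the E11.5 XY KO runs, and Fdx1 gave 782 and 756 CPM against 386 and 291 CPM. The XX control was much nearer to the XY control, with Cyp11a1 at 120 CPM (147 UMIs, 101.5 to 141) and Fdx1 at 713 CPM (873 UMIs, 667 to 762).

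The dehydrogenase Hsd3b1 was higher, not lower, in adrenal gland cells of the E11.5 XY KO. It stood at 111 CPM (152 UMIs, 94.3 to 131) in the XY control, 173 CPM (157 UMIs, 146 to 202) in the E11.5 XY KO, 350 CPM (20 UMIs, 214 to 541) in the E11.75 XY KO and 68.6 CPM (84 UMIs, 54.7 to 85.0) in the XX control. None of these intervals overlapped. The log2 ratio to the XY control was 0.63 (0.30 to 0.96) in the E11.5 XY KO, under the 2-fold rule, 1.68 (0.90 to 2.33) in the E11.75 XY KO, past it, and −0.69 (−1.10 to −0.30) in the XX control. Its neighbour Hsd3b6 was close to absent, with 2, 1, 0 and 1 UMIs in the adrenal gland cells of the XY control, E11.5 XY KO, E11.75 XY KO and XX control, and at most 4.37 CPM in any type of any sample.

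The glucocorticoid and mineralocorticoid enzyme Cyp21a1 was called lower in both other E11.5 samples. It stood at 76.9 CPM (105 UMIs, 62.9 to 93.1) in the XY control, 23.1 CPM (21 UMIs, 14.3 to 35.3) in the E11.5 XY KO and 29.4 CPM (36 UMIs, 20.6 to 40.7) in the XX control. The log2 ratios were −1.71 (−2.49 to −1.05) and −1.37 (−1.98 to −0.83). In the XX control 15 of the 36 UMIs were in a single cell, and the runs gave 41.8 and 14.4 CPM. In run 1 alone the XX control no longer passed the rule for Cyp21a1. The 105 CPM of the E11.75 XY KO rested on 6 UMIs in 2 cells.

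Cyp17a1 was found in adrenal gland cells of the XY control alone, and there in 2 of 241 cells. These held 17 and 6 UMIs, both came from the same run, and they also carried Star (9 and 6 UMIs), Hsd3b1 (4 and 3) and Cyp11a1 (2 each). The gene stood at 16.8 CPM over all adrenal gland cells of the XY control and at 0 UMIs in the other 3 samples. Against the floor of 3 UMIs it was at least 5.11-fold lower in the E11.5 XY KO and at least 6.87-fold lower in the XX control, a bound that takes the XY control level as given. With the counting error of both sums the interval of the log2 ratio ended at −1.94 and −2.37. Without those 2 cells no Cyp17a1 UMI was left in any adrenal gland cell, so the difference between samples is that of 2 cells. In pre-supporting cells Cyp17a1 stood at 1.65, 2.16, 1.52 and 1.62 CPM in the XY control, E11.5 XY KO, E11.75 XY KO and XX control, on 7 to 13 UMIs.

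**Figure D2:**
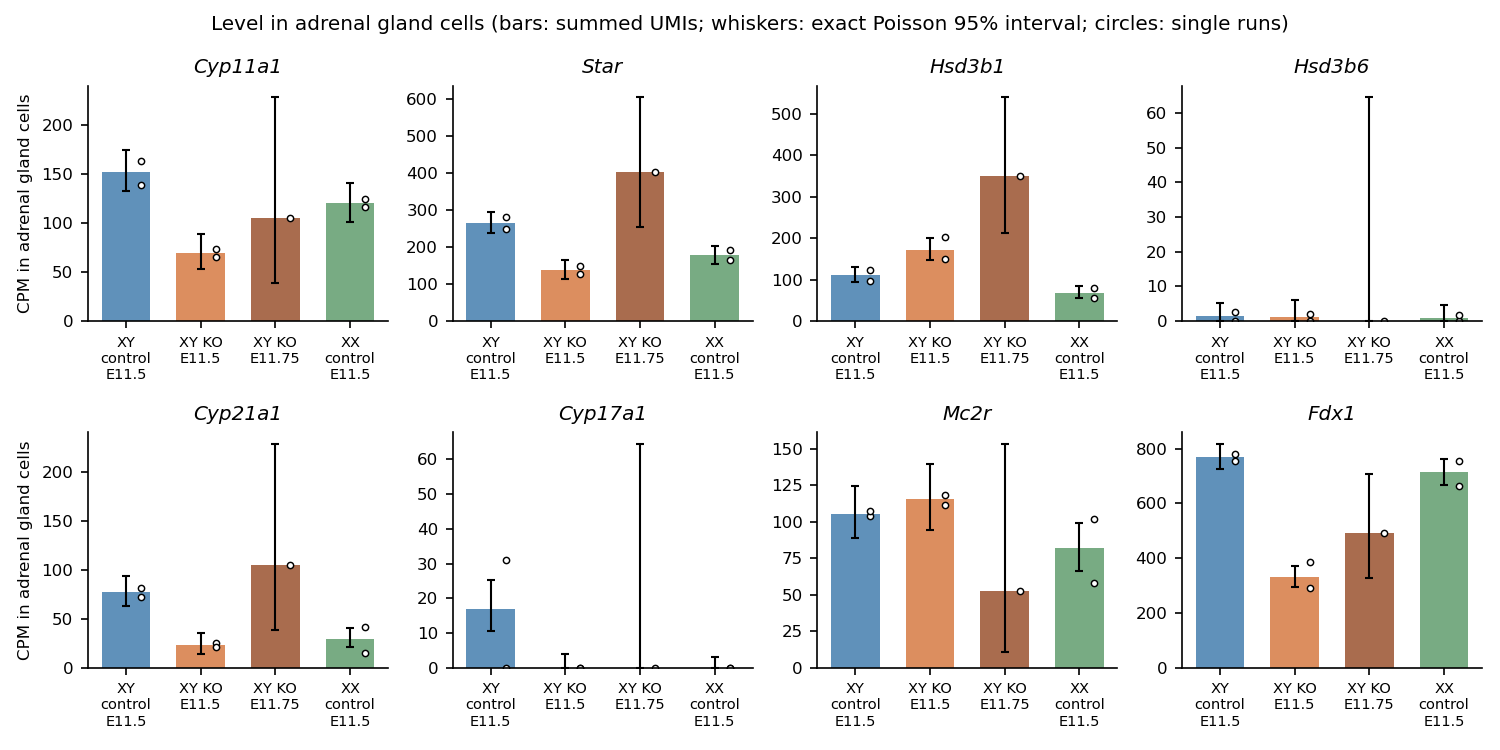
CPM of each gene in adrenal gland cells of the 4 samples, with exact Poisson 95% intervals as whiskers and single runs as open circles; the vertical axes differ between genes. Cyp11a1 (69.2 CPM), Fdx1 (332 CPM) and Cyp21a1 (23.1 CPM) in the E11.5 XY KO lie below the whole interval of the XY control, Hsd3b1 (173 CPM) lies above it, and the E11.75 XY KO whiskers are wide because it holds 8 cells.

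Cyp17a1 was also called lower in both other E11.5 samples, but it reached the minimum of 20 UMIs through the 23 UMIs of the XY control alone and could only be called lower, so it is left out of the counts that follow. Of the other 6 genes tested 3 were called lower in the E11.5 XY KO (Cyp11a1, Fdx1 and Cyp21a1), against 3.26% of 9161 genes tested, and none was called higher, against 0.917%. The median log2 ratio of the 6 was −1.04 and that of all genes tested −0.08. The 12 cortex markers outside the 8 genes moved the same way, with 6 called lower and none higher, a median of −0.92 and a summed level of 1656 CPM in the XY control and 1014 CPM in the E11.5 XY KO, and their part in the result was not tested. Mrap and Nr0b1 are among those called lower and reached the minimum through the XY control alone. With TMM scaling 3 of the 12 were called lower, with a median of −0.85. In the XX control 1 of 6 was called lower (Cyp21a1, lost in run 1 alone at −0.94), against 2.20% of 9435 genes, and none higher, against 0.943%, with a median of −0.47 beside −0.06. Of the 12 cortex markers 3 were called lower there (Nr0b1, Scarb1 and Smoc2) and none higher, with a median of −0.59 and a sum of 1159 CPM, and their part was not tested. In the E11.75 XY KO only Hsd3b1 was called higher, against 5.10% of 8092 genes, and none was called lower, against 1.50%. Of all calls in that comparison 77.3% were higher, but 22.2% with TMM scaling (trimmed mean of M-values), under which Hsd3b1 stayed higher and Fdx1 was also called lower. No control of E11.75 was sampled, so stage and deletion cannot be told apart in that comparison. For the other comparisons the share of higher calls went from 21.9% to 31.0% in the E11.5 XY KO and from 29.97% to 40.8% in the XX control. Between the XY KO samples, the log2 ratio of E11.75 to E11.5 was 1.58 (0.84 to 2.20) for Star, 1.05 (0.27 to 1.70) for Hsd3b1, 2.27 (0.59 to 3.54) for Cyp21a1 on 6 and 21 UMIs, 0.71 (−0.90 to 1.80) for Cyp11a1, 0.59 (−0.05 to 1.12) for Fdx1 and −0.92 (−3.44 to 0.45) for Mc2r on 3 and 105 UMIs. Star, Hsd3b1 and Cyp21a1 were called higher and Cyp11a1 and Fdx1 were not, against 7.58% of 6646 genes tested, and the median of all those genes was 0.29. Mc2r, at 3 UMIs in the E11.75 XY KO, reached the minimum through the E11.5 XY KO alone and is not counted. Of 8 cortex markers tested 4 were called higher there (Nr5a1, Gata6, Mgarp and Gramd1b) and none lower, with a median of 1.29, and their part was not tested. With TMM scaling, where the median of all genes was −0.22, Star (1.07) and Cyp21a1 (1.76) were still called higher, against 2.41%. The Hsd3b1 call was lost (0.54, −0.24 to 1.19). Mc2r (−1.43) passed the rule for lower, as did 9.30% of genes, but on its 3 UMIs this is not read as a call. The first 3 comparisons share the XY control. A lower level in the summed cells can come from fewer cells that hold the gene or from less RNA in each, and sums do not tell these apart. The 8 adrenal gland cells of the E11.75 XY KO were uneven: 3 of them held no UMI of any of the genes other than Fdx1, and 2 of these 3 held no Fdx1 either, while a single cell held 9 of the 20 Hsd3b1 UMIs and 5 of the 6 Cyp21a1 UMIs.

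The share of cells with a UMI followed the levels for most genes. After thinning, Cyp11a1 was found in 33.0% of 230 XY control cells (27.0 to 39.5%), 15.7% of 127 E11.5 XY KO cells (9.89 to 23.3%) and 27.3% of 55 XX control cells (16.1 to 41.0%), and in 47.3%, 35.4% and 74.5% without thinning. Hsd3b1 was found in 20.4% (15.4 to 26.2%), 34.6% (26.4 to 43.6%) and 14.5% (6.50 to 26.7%) of the same cells, and in 32.4%, 56.7% and 56.4% without thinning. At this depth the interval of the E11.5 XY KO lay below that of the XY control for Cyp11a1 and above it for Hsd3b1. Each depth was a single random draw of UMIs, and the intervals do not cover the error of that draw. For Cyp11a1 the intervals overlapped at 2000 UMIs (22.8% and 15.7%), at 5000 UMIs (41.7% and 27.4%) and without thinning. For Hsd3b1 they overlapped at 2000 UMIs (17.7% and 27.6%) but not at 5000 UMIs (32.6% and 54.7%) or without thinning. Mc2r was found in 27.4%, 27.6% and 18.2% of the thinned cells (42.3%, 55.9% and 80.0% without thinning), and Cyp21a1 in 15.2%, 5.51% and 7.27% (23.2%, 13.4% and 18.2%). Germ cells, which should not make steroids, held Cyp11a1 in 0 to 1.19% of thinned cells (0 to 5.95% without thinning) and Hsd3b1 in none (0 to 0.180% without thinning), although they were deeper at a median of 9280 to 40640 UMIs before thinning.

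Single adrenal gland cells held few of the genes at once at this depth. Leaving out the broadly present Fdx1, 46.1% of thinned XY control cells (39.5 to 52.8%), 33.9% of E11.5 XY KO cells (25.7 to 42.8%) and 32.7% of XX control cells (20.7 to 46.7%) held 2 or more of the other 7. No gene of the 7 was found in 13.9%, 28.3% and 36.4% of them. The gap between the XY control and the E11.5 XY KO was smaller at the other depths, since 2 or more genes were found in 31.6% and 29.1% at 2000 UMIs, in 67.4% and 59.4% at 5000 UMIs and in 70.95% and 70.87% without thinning (96.4% in the XX control). No gene was found in 32.9% and 32.3% at 2000 UMIs, in 6.94% and 10.4% at 5000 UMIs and in 7.05% and 8.66% without thinning. At 3000 UMIs 2 or more were found in 0.194 to 2.01% of the pre-supporting cells, and in germ cells in none. The bars of genes per cell show the same contrast between both cell types.

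**Figure D3:**
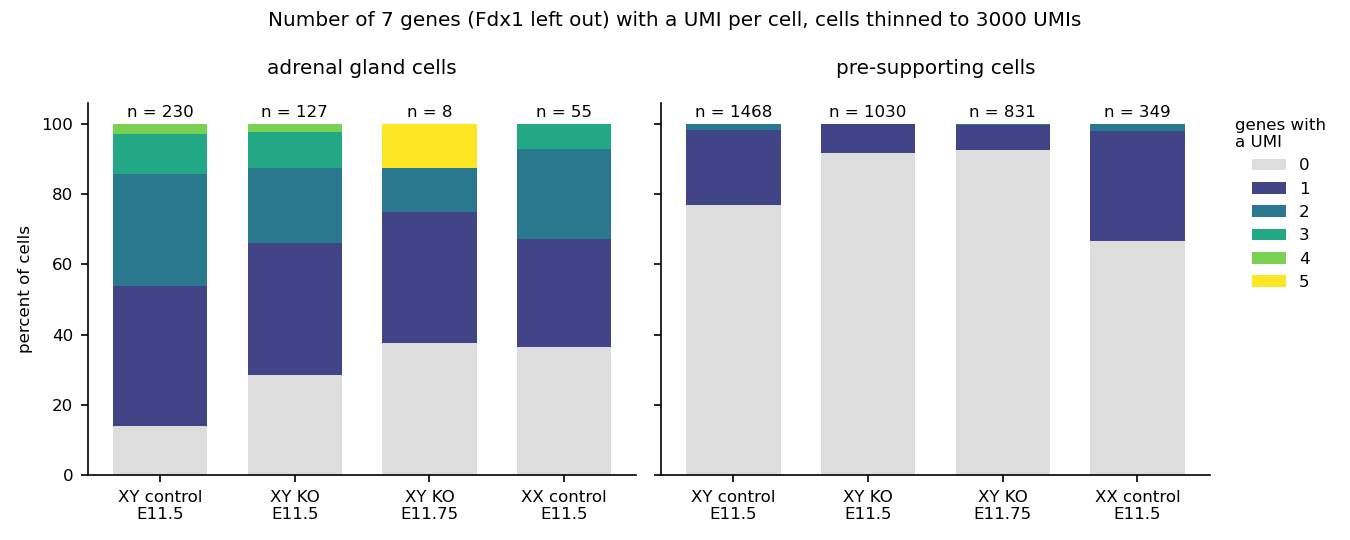
Percent of cells (vertical axis) by the number of the 7 genes other than Fdx1 with a UMI (colours), for adrenal gland cells (left) and pre-supporting cells (right) thinned to 3000 UMIs, with the number of cells above each bar. Cells with 2 or more genes make up 46.1% of adrenal gland cells and 1.63% of pre-supporting cells in the XY control.

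Other genes of the pathway were read from lists of cofactors, cholesterol supply and regulators. Genes with 3 or fewer UMIs in one of the samples (Cyp11b1 and Lipe) entered through the other sample alone and are left out of the E11.5 counts and medians. Over all 9161 genes tested in the E11.5 XY KO 3.26% were called lower and 0.917% higher, and over the 9127 above 3 UMIs in both samples 2.90% and 0.920%, with a median of −0.07. Of 9 steroidogenic cofactors and later enzymes 2 were called lower and none higher there, with a list median of −0.08. These were Mrap, the accessory protein that takes Mc2r to the cell surface (71.1 CPM in the XY control, 15.4 CPM in the E11.5 XY KO, log2 −2.17), and Akr1b7, an aldo-keto reductase of the adrenal cortex (66.7 and 25.3 CPM, log2 −1.38). Cyp11b1, the 11-beta-hydroxylase, had 32 UMIs in the XY control, 1 in the E11.5 XY KO, 4 in the E11.75 XY KO and none in the XX control. The most abundant gene of the list, the ferredoxin reductase Fdxr, stood at 640 and 419 CPM, a log2 ratio of −0.61 (−0.79 to −0.44) that did not pass the rule.

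No gene of cholesterol synthesis passed the rule among the 19 tested in the E11.5 XY KO, with a median of −0.16, and its most abundant gene Hmgcs1 was at 160 CPM in the XY control and 95.6 CPM in the E11.5 XY KO. Of 10 genes of cholesterol uptake and storage 2 were called lower (3.26% of all genes tested), with a median of −0.27. Among them was the cholesterol efflux pump Abca1 (90.8 and 22.0 CPM, log2 −2.02). The hormone-sensitive lipase Lipe, which frees stored cholesterol, had 45 UMIs in the XY control and 1 in the E11.5 XY KO. Apoe, the most abundant, was at 1121 and 705 CPM.

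Of 20 regulators 2 were called lower (3.26% of all genes tested) and none higher, with a median of −0.27. Nr5a1, which drives expression of many steroidogenic genes, was at 288 CPM in the XY control and 137 CPM in the E11.5 XY KO (log2 −1.06, −1.37 to −0.77), and its repressor partner Nr0b1 at 30.03 and 14.3 CPM (log2 −1.04, −2.10 to −0.14). With TMM scaling in place of total UMIs neither passed 2-fold. The most abundant regulator, Dlk1, was at 1442 and 1508 CPM. In the XX control Scarb1, of 11 uptake genes, and Nr0b1 and Shh, of 20 regulators, were called lower (2.20% of 9435 genes tested), as was none of 9 cofactors, and none of these genes was called higher. With TMM scaling Scarb1, at a log2 ratio of −1.03 before, was no longer called and Gli1, at 0.96 before, was called higher. In the E11.75 XY KO 1 of 9 cofactors (Hsd11b2), 2 of 11 uptake genes (Npc1 and Soat1) and 3 of 18 regulators (Gata6 and Wt1 among them) were called higher (5.10% of 8092 genes tested) and Apoe lower (455 CPM; 1.50%), and each gene named here had 6 to 26 UMIs in that sample. The median of all genes in that comparison was 0.30, and with TMM scaling, where it was −0.13, no gene of these 3 lists was called higher.

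**Figure D4:**
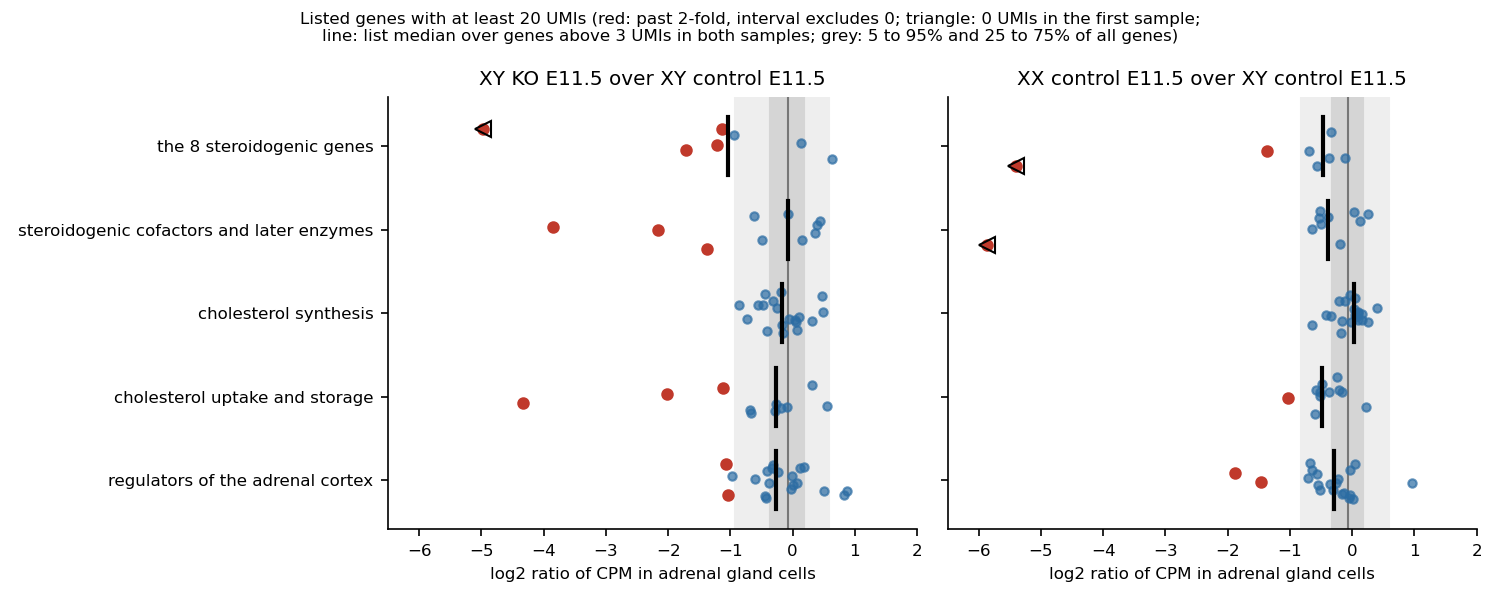
Log2 ratio of CPM in adrenal gland cells to the XY control (horizontal axis) for each listed gene with at least 20 UMIs, by list, with the median of each list over genes above 3 UMIs in both samples as a black line and all genes tested as grey bands. The median of the steroidogenic genes without Cyp17a1 lies at −1.04 in the E11.5 XY KO and at −0.47 in the XX control, while that of cholesterol synthesis lies at −0.16 and 0.03. Triangles are genes with no UMI in the first sample, whose position depends on the added count of 0.5.

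Outside the adrenal gland cells Cyp11a1 differed widely between samples in pre-supporting cells, the precursors of Sertoli and granulosa cells. It stood at 142 CPM in the XX control (963 UMIs in 352 cells, 133 to 151), 70.4 CPM in the XY control (555 UMIs in 1641 cells, 64.7 to 76.5), 18.4 CPM in the E11.5 XY KO (111 UMIs in 1084 cells, 15.2 to 22.2) and 5.23 CPM in the E11.75 XY KO (24 UMIs in 924 cells, 3.35 to 7.78). None of the 4 intervals overlapped. The log2 ratios to the XY control were 1.01 (0.86 to 1.17), −1.93 (−2.24 to −1.64) and −3.72 (−4.41 to −3.16), all past the 2-fold rule. The call in the XX control was lost in run 2 alone (0.98) and among cells of at least 5000 UMIs (0.91). Runs of a sample lay close together, at 141 and 143 CPM in the XX control, 68.7 and 72.3 CPM in the XY control, and 17.8 and 19.0 CPM in the E11.5 XY KO.

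In the XX control the pre-supporting level of Cyp11a1 (142 CPM) was as high as that of the adrenal gland cells (120 CPM), and their intervals overlapped. In the XY control the adrenal gland cells came first at 152 CPM, then pre-supporting cells, then Sertoli cells at 40.9 CPM and supporting-like cells at 27.9 CPM, with no overlap between neighbours. Thinned to 3000 UMIs, 30.1% of XX control, 14.7% of XY control, 3.40% of E11.5 XY KO and 1.08% of E11.75 XY KO pre-supporting cells held a Cyp11a1 UMI, and 61.6%, 20.05%, 6.27% and 2.16% did so without thinning. The mesonephros, which should lack the enzyme, held 2.23, 2.64, 0.552 and 0.138 CPM in the same samples, far under each pre-supporting level. Supporting-like cells kept the order among the XY samples, with 27.9, 10.9 and 2.67 CPM in the XY control, E11.5 XY KO and E11.75 XY KO, but the last value rested on 2 UMIs and its interval (0.323 to 9.64) overlapped that of the E11.5 XY KO (6.98 to 16.2). The XX control, at 25.8 CPM (17.7 to 36.4), was not above the XY control there, with a log2 ratio of −0.10 (−0.75 to 0.50). In Sertoli cells the order of the E11.5 XY KO and the XY control could not be told. The 24 cells of the E11.5 XY KO held 79.3 CPM of Cyp11a1 (12 UMIs, 41.0 to 138) against 40.9 CPM (35.01 to 47.6) in the XY control. That log2 ratio, 1.01 (−0.03 to 1.80), was not called. Of those 12 UMIs 11 lay in run 1 (109 CPM), while run 2 gave 19.8 CPM, below the XY control. The E11.75 XY KO held 9.74 CPM (4.67 to 17.9), below the intervals of the summed cells of both.

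Few other genes of the 8 followed Cyp11a1 in the pre-supporting cells. In the E11.5 XY KO Cyp11a1 was called lower (3.76% of 12596 genes tested) and none higher (1.49%). In the E11.75 XY KO Cyp11a1 was called lower (2.71% of 12615) and none higher (6.20%). In the XX control Cyp11a1 was called higher (1.54% of 12816) and none lower (2.89%). Hsd3b1 in the E11.5 XY KO and Mc2r in the E11.75 XY KO also passed the rule for lower. Both reached the minimum through the XY control alone. Their levels in those knockout samples were at or under background, as given below, and they are not counted. Star stood at 27.6 CPM in the XY control and at 13.9, 14.2 and 14.2 CPM in the E11.5 XY KO, E11.75 XY KO and XX control, log2 ratios of −0.98, −0.96 and −0.96 that did not reach 2-fold. With TMM scaling the value of the E11.75 XY KO was −1.16 (−1.59 to −0.76) and was called lower (4.46% of genes tested). Mc2r was low throughout, at 4.06 CPM in the XY control and 1.52 CPM (7 UMIs) in the E11.75 XY KO. Over all types but adrenal gland cells it stood higher, at 7.58 and 4.08 CPM in the same samples. Fdx1 was at 95, 79.9, 58.8 and 125 CPM in the XY control, E11.5 XY KO, E11.75 XY KO and XX control, the same order as Cyp11a1 within a narrower range. That order was not particular to pre-supporting cells, since Fdx1 stood at 67.0, 62.6, 44.0 and 76.9 CPM over all types but adrenal gland cells.

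Hsd3b1 was also found in Sertoli cells of the XY control, at 29.1 CPM (121 UMIs in 752 cells, 24.2 to 34.8), above the 5.83 CPM of pre-supporting cells. There were 24 Sertoli cells in the E11.5 XY KO, with no Hsd3b1 UMI and an upper limit of 24.4 CPM, and 168 in the E11.75 XY KO, at 7.79 CPM (8 UMIs, 3.36 to 15.4). The XX control held 2 cells of that name and was not compared. In pre-supporting cells Hsd3b1 stood at 5.83 CPM (46 UMIs) in the XY control and 0.995 CPM (6 UMIs) in the E11.5 XY KO, a log2 ratio of −2.45 (−4.07 to −1.32) that has the opposite sign of the 0.63 in adrenal gland cells. The E11.75 XY KO, at 4.58 CPM (log2 −0.33, −1.17 to 0.42), and the XX control, at 3.10 CPM (log2 −0.90, −1.73 to −0.14), were not called. In the mesonephros Hsd3b1 stood at 2.62, 1.54, 0.483 and 1.92 CPM in the XY control, E11.5 XY KO, E11.75 XY KO and XX control, so the pre-supporting level of the E11.5 XY KO was no higher than this background and is not read as expression.

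Sertoli markers also differed between the pre-supporting cells of the 4 samples. The 8 Sertoli markers summed to 321 CPM in pre-supporting cells of the XY control, 60.9 CPM in the E11.5 XY KO, 154 CPM in the E11.75 XY KO and 75.3 CPM in the XX control. That order is not the order of Cyp11a1, which was highest in the XX control, and the part of these markers in the result was not tested. Lhcgr, the Leydig cell receptor for luteinizing hormone, was at or under 1.53 CPM in pre-supporting cells of all 4 samples. Hsd17b3 stood there at 7.48, 2.16, 0 and 5.46 CPM in the XY control, E11.5 XY KO, E11.75 XY KO and XX control. Erythroid markers stood at 2730 CPM in the XY control and 845 to 1602 CPM in the other samples.

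**Figure D5:**
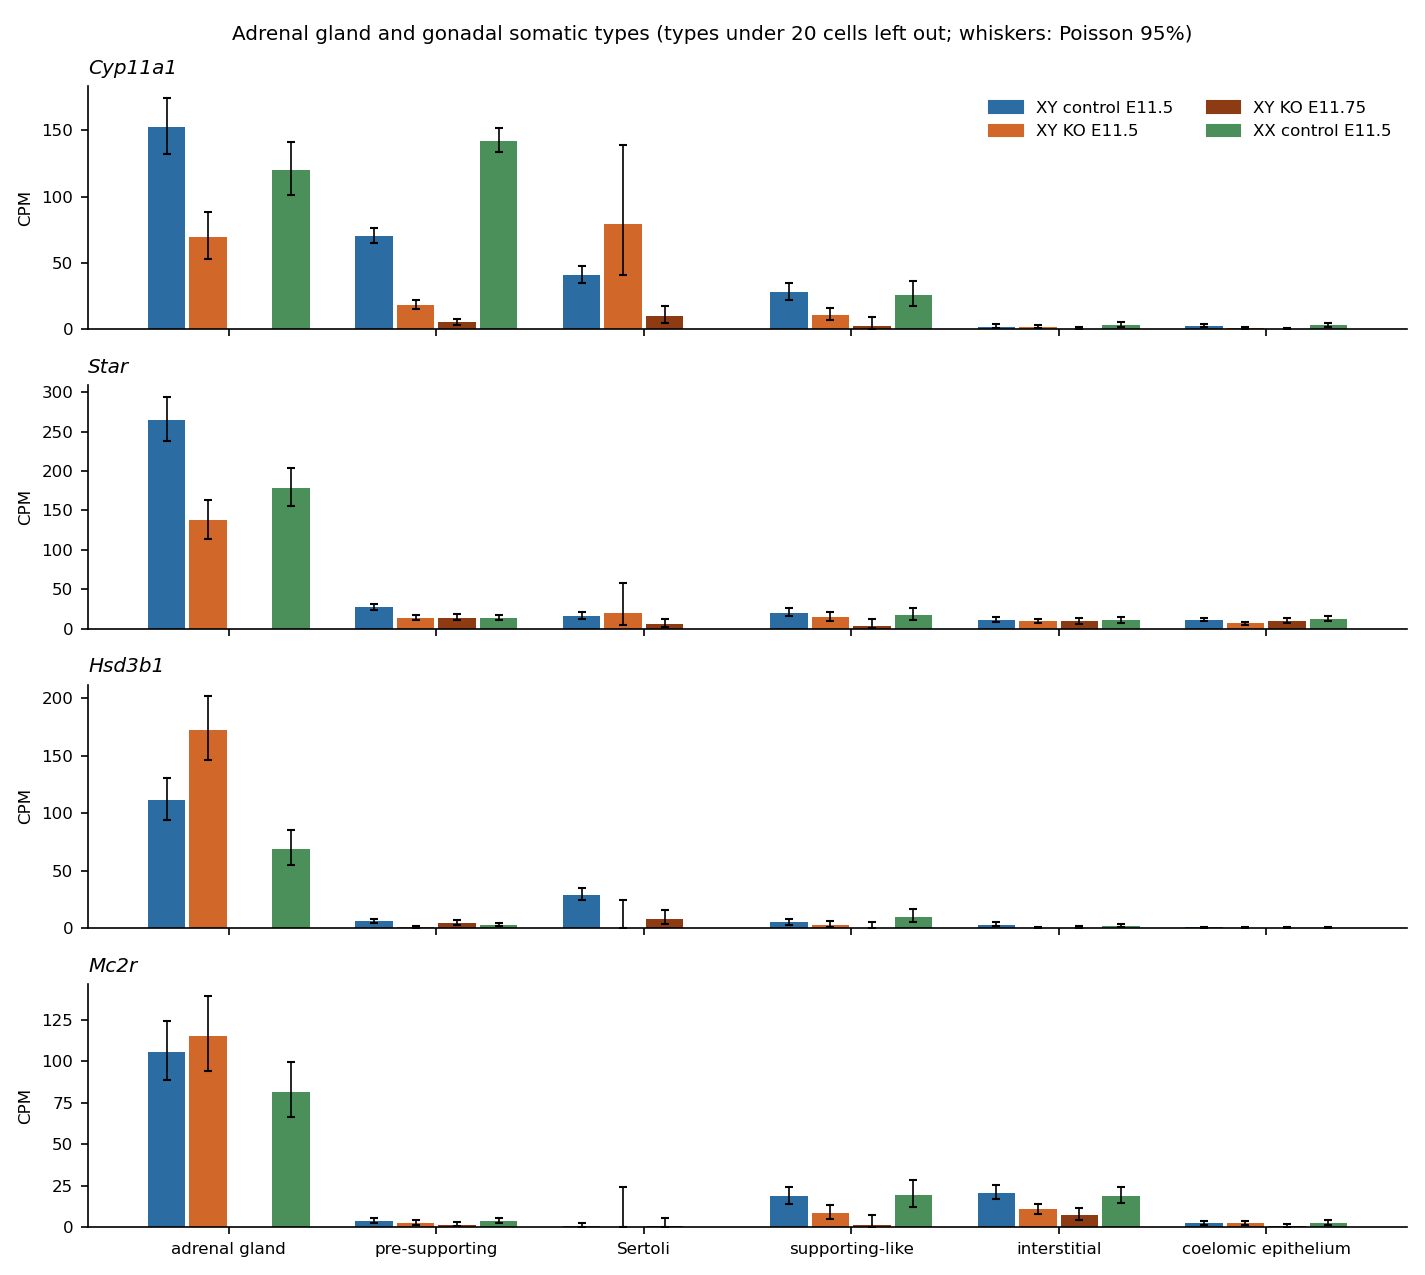
CPM (vertical axes, which differ) of Cyp11a1, Star, Hsd3b1 and Mc2r in adrenal gland cells and 5 gonadal somatic types, by sample, with exact Poisson 95% intervals; types of under 20 cells in a sample are left out. Cyp11a1 in pre-supporting cells runs from 5.23 CPM in the E11.75 XY KO to 142 CPM in the XX control, and Hsd3b1 in the XY control reaches 29.1 CPM in Sertoli cells.

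Genes with a pattern like that of the 8 were looked for over the 50 pairs of sample and cell type with at least 20 cells. Likeness was Pearson's r between log2(CPM + 1) of a gene and that of the summed 8 genes, and since the points share libraries, depth and free RNA it is a description with no p. The closest were Gpha2, a glycoprotein hormone subunit (r = 0.90, 440 UMIs in all), Dnajc15, a mitochondrial co-chaperone (0.90), Fdxr (0.87), Serpina3a (0.86), Grin2c (0.86), Mgarp, a mitochondrial protein of steroid-making tissue (0.86), Grin2b (0.84), Mrap (0.83), Aldh3b2 (0.83) and Mcrip2 (0.83). Among the 8 themselves r with the sum ran from 0.21 for Hsd3b6 and 0.51 for Cyp17a1 to 0.97 for Fdx1, which makes up the largest part of the sum. In adrenal gland cells of the XY and XX controls Gpha2 stood at 19.0 and 23.7 CPM, Grin2b, a glutamate receptor subunit, at 186 and 157 CPM, and Dnajc15 at 221 and 198 CPM.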

How the data were processed

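The deposited table gives UMI counts per gene and cell of all 4 samples, with the cell type names and the percent of mitochondrial and beta globin counts of each cell, as the authors computed them. Per the labels and methods, the authors prepared methanol-fixed pools with 10x 3′ chemistry, counted with Cell Ranger 6.1.1 on mm10 with an added Sry exon, and filtered cells, removed doublets with DoubletFinder and integrated and annotated cells with Seurat. XY cells were held under 30000 UMIs and 7000 genes, while XX cells were filtered by cluster, so that 10 XX control adrenal gland cells lie above that limit. No further doublet call was made here. All 52745 cells and 301219830 UMIs were used, and every value was a whole number.

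UMIs were summed per deposited type and sample, since cells are not replicates. Names follow the study: Bipotential progenitors are called pre-supporting cells, Supporting Sertoli cells, Epithelial coelomic epithelium, SLCs supporting-like cells and PGCs germ cells. Levels carry exact Poisson 95% intervals. Log2 ratios add a count of 0.5 to each sum and carry the exact conditional binomial interval of the 2 counts. A gene was called when past 2-fold with an interval excluding 0, given at least 20 UMIs over both samples. UMIs without replicate samples give counting error only. Cells were thinned at random to 3000 UMIs for shares, which left out 11 XY control adrenal gland cells. Likeness used genes of at least 100 UMIs. Ratios and thinning were tested on simulated data. The simulated counts followed the Poisson model that the intervals assume, so they do not test the intervals for UMIs that clump in few cells. The rule for named genes was: the 8 genes in every result, listed genes called in the XY KO samples with the most abundant of each list, and the 10 genes most like the sum. The members and lists were chosen with earlier results of these data known, and the comparisons between samples in pre-supporting cells, the TMM values there and between the XY KO samples, and the recounts without single cells or without genes at 3 or fewer UMIs were added after values were seen. Analysis used python 3.11.15, numpy 2.4.6, scipy 1.17.1, pandas 2.3.3, and edgeR 4.0.16 in R 4.3.3 for TMM factors. Bulk RNA-seq of the study was not used here. Values of some listed genes are not reported here.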

Additional observations from a re-analysis of the deposited data

Results flagged for a closer look

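In 2 comparisons a gene differed in opposite directions in adrenal gland and pre-supporting cells, each with an interval that excluded no difference; the difference between cell types was not tested, as there is 1 sample per group. Hsd3b1 in the E11.5 XY KO against the XY control had a log2 ratio of 0.63 in adrenal gland cells and −2.45 in pre-supporting cells. The latter rests on 6 UMIs in the E11.5 XY KO (0.995 CPM, under the 1.54 CPM of the mesonephros of that sample). Cyp11a1 in the XX against the XY control had a log2 ratio of −0.34 in adrenal gland cells and 1.01 in pre-supporting cells. With TMM scaling the former was −0.28 (−0.60 to 0.03), so that its interval included no difference.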

How the results depend on the processing

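No paired analysis was possible because each group is 1 sample. Of the log2 ratios of the 8 genes in adrenal gland cells, 21 in all, 224 of 232 alternative values moved by less than their counting interval, 8 moved by more and 0 changed sign after a call. With Cyp17a1 counted, 3 to 5 of the genes were called lower in the E11.5 XY KO, with Star added among cells of at least 5000 UMIs and Cyp17a1 lost in run 2 alone and without the 2 cells that hold it; none of the 8 was called higher there under any setting run. In the E11.75 XY KO the count called lower went from 0 to 1 under TMM (Fdx1), and in the XX control from 2 to 1 in run 1 alone (Cyp21a1 lost, its log2 ratio −0.94 in place of −1.37), and in run 2 alone and without the 2 Cyp17a1 cells (Cyp17a1 lost). With pre-supporting and Sertoli cells together the log2 ratio of Cyp11a1 was −1.59 in the E11.5 XY KO and 1.23 in the XX control; over all settings it lay between −2.15 and −1.59, between −3.92 and −3.29 in the E11.75 XY KO, and between 0.91 and 1.23 in the XX control, whose call was lost in run 2 alone (0.98) and among cells of at least 5000 UMIs (0.91). Counts over all genes fell with the minimum of UMIs, by its construction: at 50 UMIs 32 higher and 148 lower in the E11.5 XY KO and 28 and 81 in the XX control, at 100 UMIs 13 and 45, 7 and 25, and 142 higher in the E11.75 XY KO, and with no minimum 155 higher in the XX control. Adrenal gland cells were 1.33% of XY control cells of at least 3000 UMIs. Ranked by Spearman's rho, 1 of the 10 most similar genes was shared; the cause was not tested. Shares of cells with a UMI moved beyond their interval in 93 of 192 alternatives of thinning depth, and levels in gonadal cells in 0 of 32 without cells holding 3 or more of the genes. In the 8 adrenal gland cells of the E11.75 XY KO 3 UMIs stood for 52.5 CPM, and no control of that stage was sampled.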
